A study of Homo sapiens with 7 samples.

Results

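The genes of potassium channel pore-forming subunits and their small KCNE partners were placed on broad domains of 2 repressive histone marks, H3K27me3 and H3K9me3, in a human colon cancer cell line. Members were the autosomal protein-coding genes of the GENCODE 44 annotation (hg38) whose symbol is KCN, 1 letter from A to V and a number. The rule found 81 members among 19111 autosomal protein-coding genes. They comprise 39 voltage-gated genes (KCNA to KCND, KCNF to KCNH, KCNQ, KCNS and KCNV), 16 inward rectifier genes (KCNJ), 15 two-pore genes (KCNK) and 11 others (KCNE, KCNN, KCNT and KCNU). Each gene is given by its start site, the first base of its annotated record, and by its body, the whole record.

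The marks were profiled by ChIP-seq in HCT116 cells, a colorectal carcinoma line, that carry a doxycycline-inducible short hairpin RNA against UHRF1, a protein that helps to maintain DNA methylation. All groups were baseline cells kept for 14 days without doxycycline, so the hairpin was present but not induced in every one of them. Clone 3 H3K27me3, Clone 6 H3K27me3 and Clone 3 H3K9me3 had 2 samples each, with 1 input sample of Clone 3. The Clone 6 H3K9me3 set was not analysed here and enters only through the set shared by the clones. Clone 3 and Clone 6 are each a single clonal line, so a difference between their sets is not one between treatments. The H3K27me3 sets also differ in number, with 2600 domains in Clone 3 and 1959 in Clone 6, and in the step of their edges. A difference between the clones cannot be told apart from one in domain calling or sample depth. The authors had merged the replicates into 5 domain sets, so no count or share below has a replicate error, and the depth of each sample cannot be read from the sets. Domain sets hold no expression values, so the labelled cell line was not checked against marker genes.

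Potassium channels let potassium leave or enter the cell and set the resting potential and the shape of electrical signals. Voltage-gated channels open on depolarization, inward rectifiers pass current more readily into the cell than out of it, and two-pore channels carry background leak. H3K27me3 is deposited by the Polycomb repressive complex PRC2 and covers many developmental and tissue-restricted genes, whereas H3K9me3 marks constitutive heterochromatin. In intestinal epithelium, potassium channels are known for driving chloride secretion.

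Upstream sequences of 4 members in 3 different domain states are shown, because members with very different CpG content lay in the same kind of domain. They are the 250 bases before the RefSeq start (GRCh38.p14), which equals the GENCODE start for these 4 genes, written from 5′ to 3′ on the strand of the gene. Capitals mark each CpG. KCND3 (chr1:111989669-111989918, minus strand) and KCNA10 (chr1:110519176-110519425, minus strand) had their start sites in H3K27me3 of both clones. KCNJ10 (chr1:160070161-160070410, minus strand) lay in H3K27me3 of Clone 6 only, and KCNH8 (chr3:19148260-19148509, plus strand) in H3K9me3 of Clone 3.
KCND3: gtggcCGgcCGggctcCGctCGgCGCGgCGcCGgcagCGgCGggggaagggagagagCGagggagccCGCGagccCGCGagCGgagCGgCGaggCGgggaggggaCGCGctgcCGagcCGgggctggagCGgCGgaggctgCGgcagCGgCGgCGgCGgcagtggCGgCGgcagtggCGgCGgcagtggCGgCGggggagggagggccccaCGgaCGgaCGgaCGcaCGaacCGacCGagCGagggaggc
KCNA10: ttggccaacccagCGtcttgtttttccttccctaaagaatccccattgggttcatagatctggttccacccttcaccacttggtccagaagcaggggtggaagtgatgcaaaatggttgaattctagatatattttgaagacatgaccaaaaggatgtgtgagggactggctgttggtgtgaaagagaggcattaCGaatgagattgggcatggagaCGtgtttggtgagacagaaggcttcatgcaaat
KCNJ10: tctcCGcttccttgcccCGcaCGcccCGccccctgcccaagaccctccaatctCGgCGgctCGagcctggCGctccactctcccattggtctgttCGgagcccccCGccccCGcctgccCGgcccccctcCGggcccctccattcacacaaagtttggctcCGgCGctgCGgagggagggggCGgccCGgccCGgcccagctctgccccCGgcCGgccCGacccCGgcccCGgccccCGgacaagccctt
KCNH8: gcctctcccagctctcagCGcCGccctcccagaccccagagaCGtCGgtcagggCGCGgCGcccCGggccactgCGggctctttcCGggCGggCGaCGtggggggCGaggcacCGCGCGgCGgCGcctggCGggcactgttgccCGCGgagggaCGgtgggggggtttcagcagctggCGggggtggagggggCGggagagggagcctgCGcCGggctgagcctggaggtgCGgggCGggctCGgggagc

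The upstream run of KCND3 held 44 CpGs, and 0.858% of all autosomal protein-coding genes had at least as many in the same 250 bases. KCNA10 held 3 CpGs, a number reached by 84.3% of genes. The runs of KCNJ10 and KCNH8 held 25 and 30 CpGs, numbers reached by 22.8% and 12.7% of genes. A CpG (the letters CG, which read the same on both strands) was present in 96.3% of all such runs, with a median of 14. Of the 81 members, 59 had a promoter in the RefSeq table.

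The first question was how many channel genes lay in a domain of each mark. H3K27me3 held the start sites of 17 of 81 members in Clone 3 (21.0%) and 28 in Clone 6 (34.6%), and 14 (17.3%) were in the set shared by both clones. Across all autosomal protein-coding genes the shares were 6.49%, 7.98% and 5.35%. H3K9me3 held 3 member start sites in Clone 3 (3.7%, against 3.5% of all genes) and 2 in the shared set (2.47%, against 3.39%). The H3K9me3 shares of the members were thus near those of all genes, and the H3K27me3 shares were above them in both clones. They were also above them in the shared set, which is made from the clone sets and is no separate observation. No test was made, because members that share a domain are not independent and no replicates remain in the sets.

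Gene bodies gave the same order. An overlap of at least 1 bp with an H3K27me3 domain was found for 23 members in Clone 3 (28.4%), 33 in Clone 6 (40.7%) and 20 in the shared set (24.7%), beside 8.7%, 10.3% and 7.19% of all genes. With H3K9me3, 4 bodies overlapped in Clone 3 (4.94%) and 3 in the shared set (3.7%), beside 4.08% and 3.9% of all genes. By length, H3K27me3 covered 41.1% of the summed 9.46 Mb of member bodies in Clone 3, 44.7% in Clone 6 and 35.5% in the shared set, against 11.7%, 11.4% and 9.18% over all genes. H3K9me3 covered 11.2% of member length in Clone 3, above the 8.3% of all genes, and 5.22% in the shared set, below their 7.78%. The median member body was 40.7 kb long and the median of all genes was 27.9 kb, and the contribution of this length difference to the body counts was not tested. In all, 38 of 81 members (46.9%) had the start site or part of the body in a domain of any set, beside 15.4% of all genes, and 43 had neither.

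**Figure D1:**
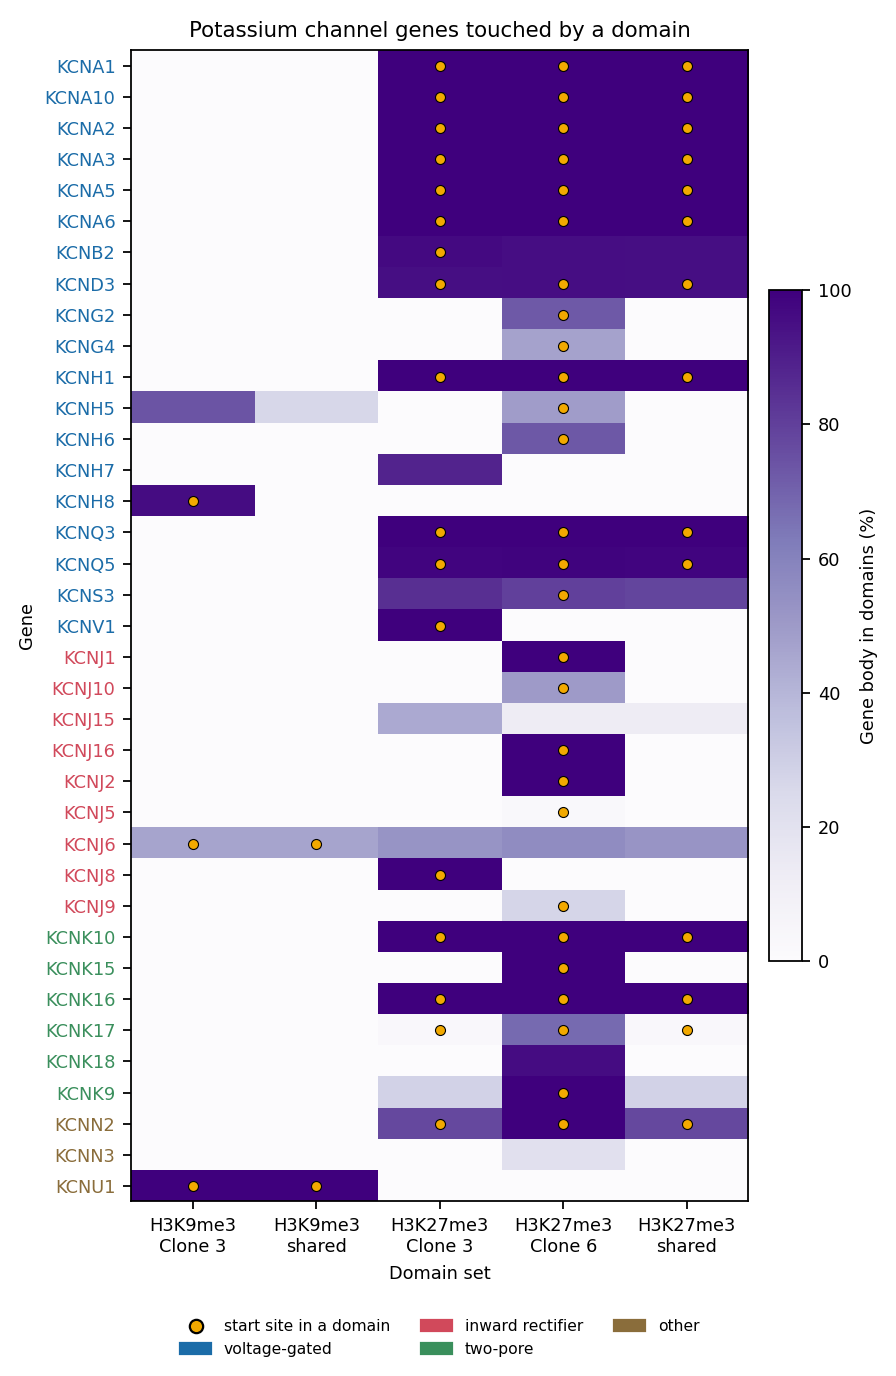
Percent of each gene body inside the domains of the 5 sets (columns) for 37 of the 38 members touched by any domain (rows), with gene names coloured by channel group and a dot where the start site lies in a domain. The 6 KCNA genes are wholly covered by H3K27me3 in both clones, whereas 7 of the 9 inward rectifier genes drawn are covered by H3K27me3 in 1 clone only.

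Among the voltage-gated genes, 12 of 39 start sites (30.8%) lay in H3K27me3 of Clone 3, 16 (41.0%) in Clone 6 and 10 (25.6%) in the shared set. The inward rectifiers had 1 of 16 (6.25%) in Clone 3 and 6 (37.5%) in Clone 6, with 0 in the shared set. Of the two-pore genes, 3 of 15 (20.0%) were in Clone 3, 5 (33.3%) in Clone 6 and 3 in the shared set. The remaining 11 genes had 1 start site (9.09%) in each of the 3 sets, that of KCNN2. In Clone 6 the 3 main groups were therefore between 33.3% and 41.0%, and in Clone 3 they ran from 6.25% to 30.8%. With domains of at least 100 kb, the Clone 6 counts were 12 of 39 voltage-gated, 2 of 16 inward rectifier and 5 of 15 two-pore genes, beside 6.14% of all genes. For the inward rectifiers the Clone 3 share was close to the 6.49% of all genes by the start of the gene record, but canonical starts put 3 of 16 in a domain, and by body 3 of 16 (18.8%) overlapped one, beside 8.7% of all genes. These group shares rest on few domains, since neighbouring genes of 1 family often lay in the same domain.

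**Figure D2:**
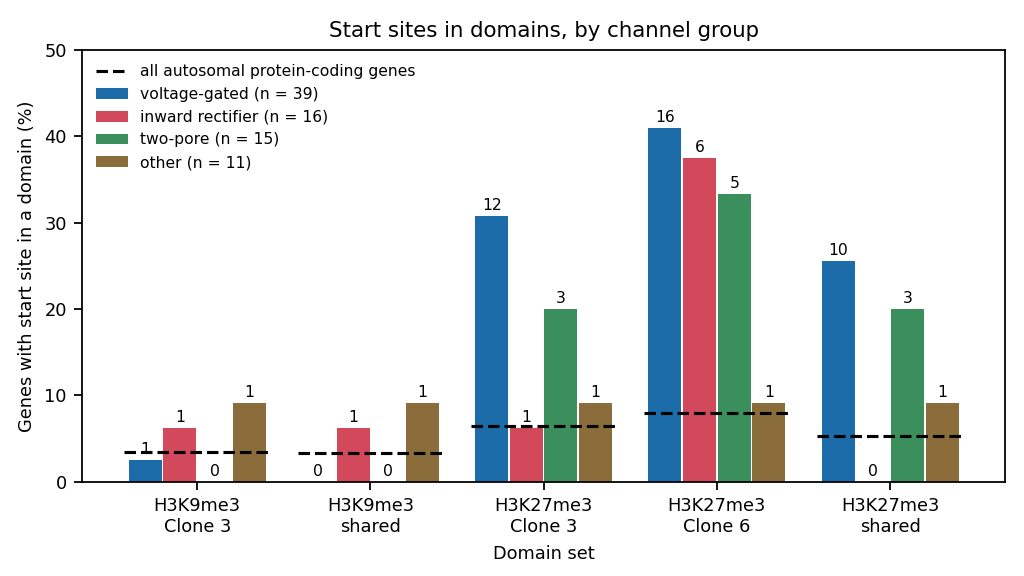
Percent of start sites inside the domains of each set (x axis) for the 4 channel groups, with the number of genes above each bar and a dashed line at the share of all autosomal protein-coding genes. Bars of the 3 main groups stand between 33.3% and 41.0% in Clone 6 H3K27me3, and the inward rectifier bar is at 6.25% in Clone 3.

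The genes of KCNA to KCND encode the pore-forming subunits of delayed rectifier and transient outward channels. Of the 8 KCNA (Shaker-type) genes, 6 had the start site in H3K27me3 of both clones, beside 5.35% of all genes. KCNA10, KCNA2 and KCNA3 lay in 1 shared domain of 388 kb on chromosome 1 (chr1:110515001-110903000), together with CD53, a leukocyte tetraspanin and the only other protein-coding gene that started there. KCNA3 is the main voltage-gated channel of T lymphocytes, and KCNA2 is an axonal channel. Their start sites span 155.765 kb, and KCNA10, nearest to the edge, started 4.174 kb inside the Clone 3 domain and 21.174 kb inside the Clone 6 domain.

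KCNA6, KCNA1 and KCNA5 lay in 1 shared domain of 412 kb on chromosome 12 (chr12:4701001-5113000), in which GALNT8, a glycosyltransferase gene, was the only other protein-coding start. KCNA1 is an axonal channel gene and KCNA5 carries an atrial repolarizing current. In both clones all 6 KCNA bodies were covered over 100% of their length. The domain edges differed little between clones, as the chromosome 12 domain measured 412 kb in Clone 3 and 416 kb in Clone 6, and the chromosome 1 domain 388 kb and 414 kb. The other KCNA genes, KCNA4 and KCNA7, were outside every set, and the KCNA4 start was 49.971 kb from a Clone 3 H3K27me3 domain.

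KCND3, which carries transient outward current in heart and brain, lay alone in a domain of both clones with a shared length of 374 kb (chr1:111781001-112155000), and 95.3% of its 219.007 kb body was covered in Clone 3 and 95.7% in Clone 6. KCND2 had no domain of either mark over it, and its start was 6529.826 kb from the nearest H3K27me3 domain, the largest distance among the members outside that mark. KCNB2 encodes a delayed rectifier of neurons. The KCNB2 body was covered over 96.7% in Clone 3 and 95.7% in Clone 6, but only the Clone 3 domain reached the start site, and the Clone 6 domain began 6.776 kb away from it. KCNC1, KCNC2 and KCNC4, which encode fast-spiking channels, were in no domain of any set.

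The KCNF, KCNG, KCNS and KCNV genes encode modifier subunits that form no channel alone and co-assemble with KCNB subunits. Of these 10 genes, 1 start site was in H3K27me3 of Clone 3 and 3 in Clone 6, with 0 in both, beside 6.49%, 7.98% and 5.35% of all genes. KCNV1 was covered over 100% in Clone 3 by a 136 kb domain (chr8:109864001-110000000) and not at all in Clone 6, whose nearest domain was 59.771 kb away. KCNG4 and KCNG2 had starts in Clone 6 domains of 34 kb and 82 kb, and no coverage in Clone 3. In all, Clone 6 domains covered 46.9% of the KCNG4 body and 72.4% of the KCNG2 body, the latter with a second domain of 30 kb. KCNS3 was covered over most of its 483.77 kb body in both clones, 85.1% in Clone 3 and 79.7% in Clone 6. Its start site was in a Clone 6 domain by 0.153 kb, and its canonical start was outside. All edges of the Clone 6 domains over members were even kb, a step of 2 kb. The start call of KCNS3 in Clone 6 is therefore uncertain.

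KCNH genes encode the ether-a-go-go channel family. KCNH1 was covered over 100% in both clones, by domains of 726 kb and 730 kb (Clone 3, chr1:210444001-211170000) in which no other protein-coding gene started. KCNH6 was in a 54 kb Clone 6 domain (chr17:63488001-63542000) that covered 72.8% of its body, and the nearest Clone 3 domain was 5341.334 kb away. KCNH7 was the opposite, with 88.5% of the body in a 415 kb Clone 3 domain (chr2:162370001-162785000) that did not reach its start, and no coverage in Clone 6. KCNH2, the cardiac repolarization channel gene, was outside all sets at 36.321 kb from a Clone 6 domain. KCNH3 and KCNH4 were also outside.

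KCNQ genes encode channels of the neuronal M current and, through KCNQ1, of cardiac and epithelial currents. KCNQ5 and KCNQ3 were in H3K27me3 of both clones. The KCNQ5 body, at 577.062 kb the longest among the members, was covered over 98.3% in Clone 3 and 98.5% in Clone 6, and KCNQ3 over 100% in each. KCNQ1 was outside every set. The KCNQ3 domain of the shared set, 510 kb on chromosome 8 (chr8:132058001-132568000), also held the starts of OC90, HHLA1 and an unnamed protein-coding gene.

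Among the 16 inward rectifiers, no start site lay in H3K27me3 of both clones, beside 5.35% of all genes, and 1 did by canonical starts. In Clone 6, 6 of them lay in 3 domains as neighbouring pairs. KCNJ10, the glial potassium buffering channel gene, and KCNJ9, a G protein-gated subunit gene, started 11.378 kb apart in a 42 kb domain (chr1:160042001-160084000), which covered part of each gene. In all, 49.7% of the KCNJ10 body and 27.3% of the KCNJ9 body were in Clone 6 domains, a neighbouring 80 kb domain included for KCNJ10. The start of KCNJ9 was 2.462 kb from the edge.

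KCNJ1, the renal potassium secretion channel gene, and KCNJ5, a G protein-gated subunit of heart and adrenal gland, were in a 60 kb Clone 6 domain (chr11:128832001-128892000). It covered 100% of KCNJ1 but 2.16% of KCNJ5. The KCNJ5 start was 0.644 kb inside the edge, so that this call is also uncertain at the 2 kb step of Clone 6 edges. KCNJ16 and KCNJ2 lay in a 310 kb domain (chr17:69984001-70294000) that covered 100% of both. KCNJ16 encodes a subunit that co-assembles with KCNJ10, and KCNJ2 the classical inward rectifier of heart and skeletal muscle. For these 6 genes the nearest Clone 3 H3K27me3 domain was between 43.373 kb (KCNJ1) and 3431.572 kb (KCNJ16) from the start. No member other than these 6 started in those 3 domains, and no other protein-coding gene did either.

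KCNJ8 had the opposite pattern. It encodes the pore of an ATP-sensitive channel of vascular smooth muscle, and its sulfonylurea receptor partner is encoded by ABCC9. Both start sites lay in 1 Clone 3 domain of 336 kb (chr12:21681001-22017000), with LDHB, a lactate dehydrogenase subunit gene, and both bodies were covered over 100%. In Clone 6 neither was covered, and the KCNJ8 start was 1072.401 kb from the nearest domain. The pancreatic counterpart was split. The start and 79.3% of the body of ABCC8 were in Clone 6 H3K27me3, and its neighbour KCNJ11 was outside, 20.67 kb from a Clone 6 domain. Clone 3 had neither. KCNJ3, KCNJ4, KCNJ12, KCNJ13, KCNJ14 and KCNJ18 were outside all sets. KCNJ12 and KCNJ18 are near-identical copies, so that their states are uncertain.

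KCNJ6, a G protein-gated subunit gene on chromosome 21, was covered by both marks. Its start lay in an H3K9me3 domain of 248 kb (chr21:37884001-38132000), found in Clone 3 and, with the same edges, in the shared set, 10.655 kb from its edge. This domain covered 46.2% of the 513.973 kb body. H3K27me3 covered 52.7% of the body in Clone 3, 55.6% in Clone 6 and 52.3% in the shared set, toward the far end of the gene. The 2 marks overlapped by 36 kb in Clone 3, and the Clone 3 H3K9me3 domain overlapped Clone 6 H3K27me3 by 38 kb. The canonical transcript starts 204.888 kb inside the gene record, at a position that is still in the H3K9me3 domain and also in H3K27me3 of both clones. The neighbouring KCNJ15 had 44.4% of its body in H3K27me3 of Clone 3 and 12.8% in Clone 6, with the start outside. Its canonical start lies 101.442 kb downstream, inside the Clone 3 domain.

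**Figure D3:**
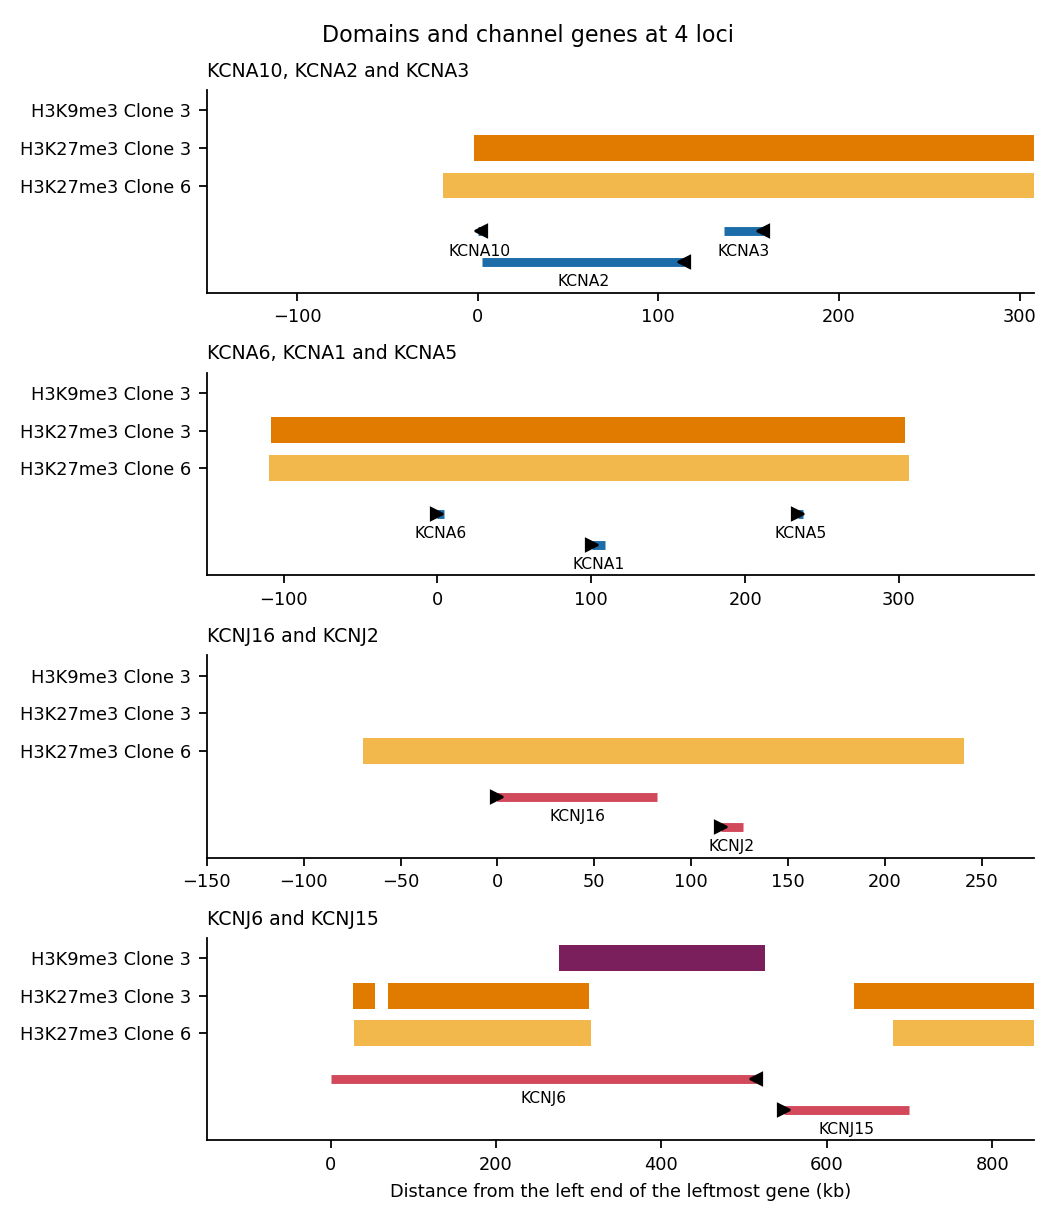
Domains (upper bars, by mark and clone) and member genes (lower bars, arrowhead at the start site) at 4 loci, by distance in kb from the left end of the leftmost gene, with domains drawn to 150 kb beyond the genes. The KCNA loci are covered in both clones, KCNJ16 and KCNJ2 in Clone 6 only, and KCNJ6 by H3K9me3 at its start and H3K27me3 over the far part, with an overlap of 36 kb in Clone 3.

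Two-pore genes in both clones were KCNK16, KCNK17 and KCNK10. KCNK16 and KCNK17, neighbouring genes of alkaline-activated pancreatic channels, started 8.507 kb apart in 1 domain on chromosome 6. It measured 588 kb in Clone 3 (chr6:39314001-39902000) and 1642 kb in Clone 6 (chr6:39304001-40946000), the longest Clone 6 domain over a member. KCNK16 was covered over 100% in both. KCNK17 had 2.98% of its body in the Clone 3 domain and 67.7% in the Clone 6 domain. The Clone 3 edge fell 0.46 kb from its start, within the 1 kb step of Clone 3 edges, so that this call is uncertain too. KCNK10, a mechanically and thermally gated leak channel gene, was covered over 100% in both clones.

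KCNK9, an acid-sensitive leak channel gene, and KCNK15, a related gene, had starts in Clone 6 only. The KCNK9 body was covered over 100% in Clone 6 and 28.2% in Clone 3, where a 919 kb domain stopped 74.109 kb short of the start (chr8:138711001-139630000), the longest Clone 3 H3K27me3 domain over a member. Its shared part, 832 kb, was the longest domain over a member in the shared set. KCNK15 was covered over 100% by a 140 kb Clone 6 domain and 367.136 kb away from Clone 3 domains. KCNK18, a leak channel gene of sensory neurons, had 96.0% of its body in a 66 kb Clone 6 domain whose edge lay 0.512 kb downstream of the start site. The start itself counted as outside, which is uncertain at the 2 kb step of Clone 6 edges. KCNK1, KCNK2, KCNK3, KCNK4, KCNK5, KCNK6, KCNK7, KCNK12 and KCNK13 were outside every set.

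Of the remaining 11 genes, KCNN2, a small-conductance calcium-activated channel gene, had its start in H3K27me3 of both clones, with 77.5% of the body covered in Clone 3 in 4 separate domains and 100% in Clone 6 in 1 domain of 1176 kb. KCNN3 had 20.8% of its body in a 36 kb Clone 6 domain and its start outside. KCNN1, KCNN4, KCNT1, KCNT2 and the 4 KCNE genes were outside every set. KCNN4 encodes the calcium-activated channel of intestinal epithelium, and KCNE3 a subunit that keeps KCNQ1 open there. No count of intestinal channel genes was made, so nothing is said of them as a group. KCNN4 was 32.025 kb from an H3K9me3 domain of Clone 3.

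KCNU1 encodes a sperm channel gated by pH. Its whole body of 151.802 kb lay in an H3K9me3 domain of 3067 kb (chr8:33901001-36968000), the longest H3K9me3 domain over a member in both H3K9me3 sets, together with the start of UNC5D, a netrin receptor gene. Like KCNJ6, it was in the shared set with the same edges. KCNH8, an ether-a-go-go-like channel gene, had its start in a 517 kb H3K9me3 domain of Clone 3 (chr3:18982001-19499000). That domain and a neighbour of 55 kb covered 95.9% of its body, whereas the shared set covered none of it. KCNH5, of the same family, had 74.2% of its body in a Clone 3 H3K9me3 domain of 669 kb (chr14:62329001-62998000) and 26.0% in the shared set. Its start was instead in Clone 6 H3K27me3, in a 458 kb domain (chr14:62904001-63362000) over 49.2% of the body, and these 2 domains of different clones overlapped by 94 kb.

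The members were then compared between the clones for H3K27me3. Domain edges over members had a 2 kb step in Clone 6 and a 1 kb step in Clone 3. Calls in 1 clone only therefore cannot be told apart from differences in domain calling or depth. Start sites were in both clones for 14 members (17.3%), in Clone 3 only for 3 (3.7%), in Clone 6 only for 14 (17.3%) and in neither for 50 (61.7%). Over all autosomal protein-coding genes these shares were 5.35%, 1.14%, 2.64% and 90.9%. With domains of at least 100 kb, 14 members were in both clones and 6 in Clone 6 only (7.41%), beside 4.21% and 1.94% of all genes. The voltage-gated group had 10 in both, 2 in Clone 3 only and 6 in Clone 6 only, the inward rectifiers 0, 1 and 6, and the two-pore genes 3, 0 and 2. By body, 20 members were in both clones, 3 in Clone 3 only (KCNH7, KCNV1 and KCNJ8) and 13 in Clone 6 only, which are 24.7%, 3.7% and 16.0% of members beside 7.2%, 1.5% and 3.12% of all genes. Of the 20, coverage in the clones differed by at most 10 percentage points for 15, and by more for KCNN2, KCNK17, KCNK9 and KCNJ15 among others.

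**Figure D4:**
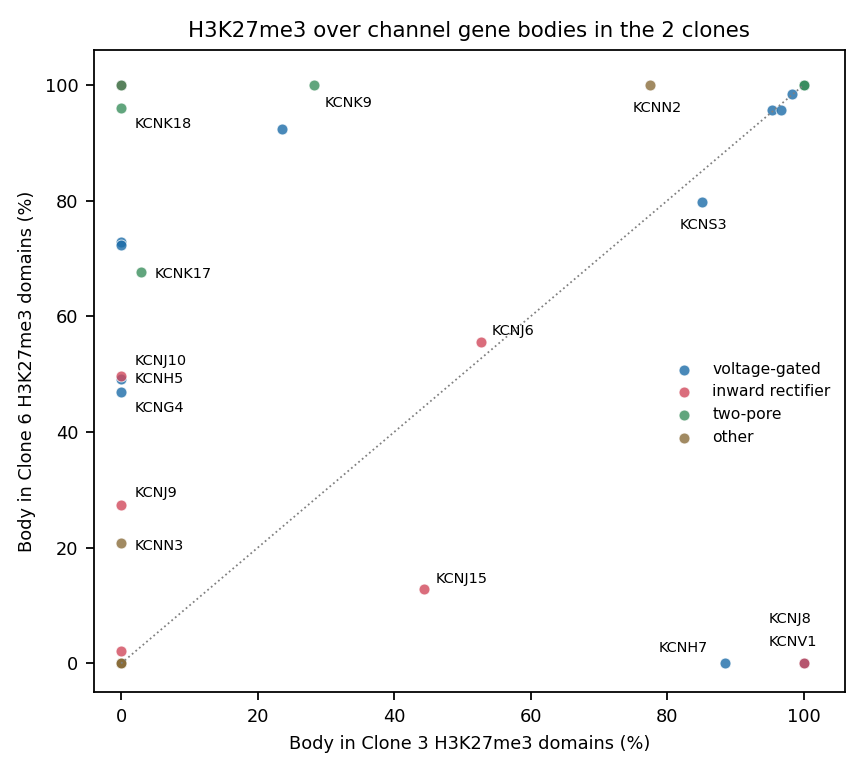
Percent of each member body inside H3K27me3 domains of Clone 3 (x axis) and Clone 6 (y axis), 1 point per gene coloured by group, with a dotted line at equality. Genes covered alike lie near the dotted line, 13 genes lie on the left axis above 0 (Clone 6 only) and 3 on the lower axis (Clone 3 only).

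The 14 start sites in both clones fell in 9 domains of Clone 6, and the 14 of Clone 6 only fell in 11 others. The former domains were 254 to 1642 kb long, with a median of 510 kb, and the latter 34 to 930 kb with a median of 82 kb. Each domain carries 2 scores from the authors, whose meaning is not stated, and by the lower of them the former ranked at percentiles 79.9 to 99.8 of the Clone 6 set and the latter at 2.81 to 94.7, with medians of 92.2 and 55.4. The lowest was the domain of KCNJ1 and KCNJ5, and that of KCNJ10 and KCNJ9 ranked at 35.2. The part that domain length or score has in the difference between clones was not tested. For 11 of the 14 Clone 6 only members, no base of the body was in a Clone 3 domain, and their starts were 41.964 to 5341.334 kb from one (median 367.136 kb). Among the exceptions, KCNS3 and KCNK9 started 62.154 kb and 74.109 kb from a Clone 3 domain.

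Of 20 Clone 6 domains that held a member start, 9 held a single protein-coding start, as did 7 of 12 in Clone 3 and 5 of 9 in the shared set. A further 3 in Clone 6 held a pair of members and no other protein-coding start. Domains with several member starts numbered 6 in Clone 6, which held 14 of the 28 start sites, and 3 in Clone 3, which held 8 of 17. The domains that held a member start had a median length of 402 kb in Clone 3 and 362 kb in Clone 6, where the medians of all domains were 58 kb and 78 kb. Longer domains hold more start sites of any kind, and the counts are not set beside those of all domains. These counts and medians are therefore a description.

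Promoter CpG content was read in the 300 bases around the start of the gene record (250 before and 50 from the start). The members with start sites in H3K27me3 of both clones had a median of 18.5 CpGs (3 to 53, n = 14), those of Clone 6 only 22 (2 to 37, n = 14) and those of neither clone 20 (1 to 52, n = 50). Among all autosomal protein-coding genes the medians were 5 in both clones (n = 1022), 11 in Clone 6 only (n = 504) and 19 in neither (n = 17367). The members' medians thus lay between 18.5 and 22 in these 3 states, and the medians of all genes between 5 and 19. At most 5 CpGs were found for 3 of the 14 members in both clones (21.4%), beside 53.4% of all genes in both clones. KCNA10, KCNA2 and KCNK16 were these 3, with 3, 4 and 4 CpGs, and the neighbouring KCNA3 had 37. From canonical starts, an alternative chosen after seeing the data, 1 of the 14 had at most 5 CpGs, as KCNA2 then had 28 and KCNK16 had 8, beside 495 of the 1022 genes in both clones. The CpG count differed by group too, with a median of 27 for voltage-gated genes, 9.5 for inward rectifiers and 16 for two-pore genes.

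**Figure D5:**
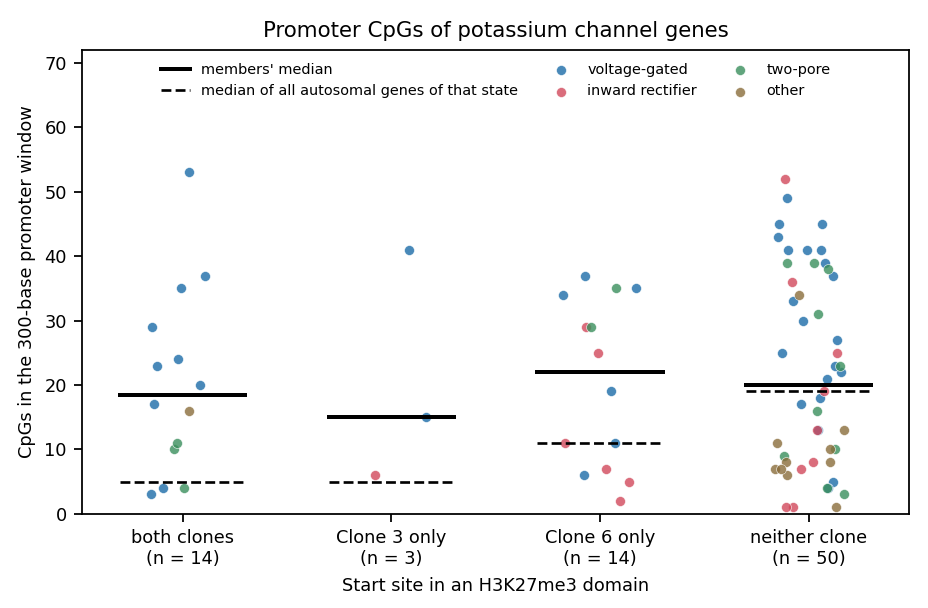
CpGs in the 300-base promoter window (y axis) of each member, by whether its start site lies in an H3K27me3 domain of both clones, 1 clone or neither, coloured by group. Solid lines are the medians of members (18.5 in both clones, 20 in neither) and dashed lines those of all autosomal genes of the same state (5 and 19).

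Further genes of potassium channels, which the symbol rule does not take, formed a list of 20: the large-conductance channel gene KCNMA1, its KCNMB and LRRC partners, the KCNAB, KCNIP and DPP subunits of voltage-gated channels and the ABCC8 and ABCC9 receptors. H3K27me3 held 6 of 20 start sites in Clone 3 (30.0%), 7 in Clone 6 (35.0%) and 5 in the shared set (25.0%), beside 6.49%, 7.98% and 5.35% of all genes. The 5 were LRRC38, LRRC52, LRRC55, KCNIP1 and KCNMB1, of which KCNMB1 lies within the span of KCNIP1. KCNMA1 had 67.7% of its body in Clone 3 domains and 86.0% in Clone 6 domains, with the start in Clone 6 only. H3K9me3 held the starts of DPP10 and KCNIP4 in both of its sets, 2 of 20 (10.0%) beside 3.5% of all genes in Clone 3 and 3.39% in the shared set. DPP10, a partner of the KCND channels, was covered over 100% of 1403.482 kb, and KCNIP4 over 58.2% in Clone 3, while DPP6 had 43.6% of its body in H3K9me3 and 16.1% in H3K27me3 of Clone 3. The 3 KCNAB genes, which encode cytoplasmic beta subunits of KCNA channels, were in no domain.

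For the 45 members with no base of the body in an H3K27me3 domain, the median distance from the start to the nearest one was 397.982 kb. The 5 nearest were KCNS1 at 4.874 kb, KCNJ11 at 20.67 kb, KCNG1 at 24.894 kb, KCNH2 at 36.321 kb and KCNA4 at 49.971 kb. The voltage-gated members in no domain of any set included KCNA4, KCNA7, KCNC1, KCNC2, KCNC4, KCND2, KCNF1, KCNG1, KCNG3, KCNH2, KCNH3, KCNH4, KCNQ1, KCNS1, KCNS2 and KCNV2. From H3K9me3, the 77 members not overlapped were a median of 3131.03 kb away.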

How the data were processed

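ChIP-seq of both marks was made in 2 clonal HCT116 lines with the hairpin against UHRF1. The authors trimmed reads with Trim Galore 0.5.0, aligned them to hg38 with Bowtie2 2.3.5, removed duplicates and called domains with Enriched Domain Detector, keeping those found in both replicates. The deposited coordinates were whole kb in all 5 sets. Clone 6 domains over members had even edges, and the shortest Clone 6 domain was 2 kb, against 1 kb in each other set. The deposited clone sets also give 2 scores per domain with no stated scale. The lower of the 2 was used to rank domains within a set and, as an alternative, to keep the upper 50% of them.

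Start sites and bodies of GENCODE 44 genes were intersected with the domains by base pair in Python 3.11.15 (numpy 2.4.6, pandas 2.3.3, pysam 0.24.0, matplotlib 3.10.9), and the interval routines were tested on simulated data. Members are autosomal, and counts are set beside those of all autosomal protein-coding genes without a test. Members were named with their state, apart from some genes that are not reported here, and the 5 members nearest to a domain were listed. The members and lists were chosen with earlier results of these data known. Alternatives covered other starts, body shares, domain lengths, scores and distances. Depth and its precision cannot be read from domain sets. Expression and DNA methylation were not analysed here.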

Additional observations from a re-analysis of the deposited data

How the results depend on the processing

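Of 107 recomputed values for 36 results, 92 stayed within 1.5 times of the reported value. Some of these could not move. No KCNE gene was in any set, so leaving these genes out changed no count, and no two-pore body met H3K9me3. Values of the shared sets also partly repeat those of the clone sets. The number that stayed is therefore not a measure of robustness. Requiring the whole body to be covered left 12 members in Clone 3 H3K27me3, 16 in Clone 6 and 10 in the shared set, and 1 in each H3K9me3 set (1.23%), beside 4.73%, 5.7% and 3.89% of all genes for H3K27me3 and 2.96% and 2.88% for H3K9me3. With at least 50% of the body, 1 remained in shared H3K9me3 (1.23%), beside 3.44% of all genes. Counting each shared H3K27me3 domain once gave 9. With domains of at least 100 kb, the Clone 6 only members fell to 6 and the Clone 6 inward rectifiers to 2. Keeping the upper 50% of domains by the lower score left 21 of 28 member starts in Clone 6 H3K27me3, and 17 in Clone 3 as before. The share of all genes under this filter was not computed. From canonical starts, 3 inward rectifiers were in Clone 3 H3K27me3 and 1 in the shared set (6.25%), beside 6.54% and 5.38% of all genes. By body overlap the inward rectifiers in these 2 H3K27me3 sets were 3 and 2, beside 8.7% and 7.19% of all genes. Voltage-gated genes by body numbered 2 in Clone 3 H3K9me3 (5.13%) and 1 in its shared set (2.56%), beside 4.08% and 3.9% of all genes. With canonical starts, a choice made after seeing the data, the median CpG counts of members were 23.5 in both clones, 29 in Clone 6 only and 22.5 in neither, beside 6, 16 and 24 for all genes. Leaving out replicates was not possible, because they were merged before deposit. No paired analysis was possible either, because the merged sets hold no replicate pairs. Edges within 1 kb of a start limit the calls for KCNS3, KCNK17, KCNJ5 and KCNK18.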

Other observations

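Other voltage-gated cation channel genes were read in the same sets as the nearest families. Of 10 autosomal SCN alpha subunit genes, which encode sodium channels, 5 (50.0%) had the start site in H3K27me3 of Clone 3 and 1 (10.0%), SCN10A, in Clone 6, beside 6.49% and 7.98% of all genes. SCN3A, SCN2A, SCN1A and SCN9A were covered over 100% of the body in Clone 3 and not covered in Clone 6. Of 9 autosomal CACNA1 genes, which encode calcium channel pore subunits, 0 had the start site in Clone 3 H3K27me3 and 1 (11.1%), CACNA1B, in Clone 6. Bodies were overlapped for 5 and 6 of them, where 8.7% and 10.3% of all gene bodies were. These genes are 66.76 to 727.179 kb long, against a median of 27.9 kb for all genes. The contribution of length to these body counts was not tested. CACNA1E and CACNA1D were covered over 88.8% and 88.3% in Clone 3 and 87.0% and 91.2% in Clone 6 with their starts outside. The H3K9me3 sets held no start site and no part of the body of either family. Over all genes they held 3.5% of start sites in Clone 3 and 3.39% in the shared set, and overlapped 4.08% and 3.9% of bodies. Several SCN genes neighbour each other on chromosome 2, so their states are not independent.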
